A study of Mus musculus with 6 samples.

Results

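Complement and coagulation are the plasma's defence and clotting cascades, and 50 of their genes were followed in the liver of mice labelled Sec15 KO and of wild-type (WT) mice. The 50 genes comprised 23 of complement and 27 of coagulation and fibrinolysis. They were chosen by name, through probes whose transcript accession matched these gene symbols. The array held 68 probes for them, and 64 of these passed the filter on dim signal. In all, 49 of the 50 genes were among the 22833 genes tested. The exception was F13a1, the catalytic A subunit of clotting factor XIII, whose 2 probes did not rise well above background on any array.

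Both groups were 6-week-old males without treatment, with 3 samples labelled WT and 3 labelled Sec15 KO, each on its own one-colour (Cy3) Agilent array of total liver RNA. Sec15 is a subunit of the exocyst, which tethers secretory vesicles to the cell surface, and the series deals with how the transcription factor STAT3 is transported. The labels do not say which Sec15 gene was deleted, in which cells or by which means, nor the strain. Nothing in the labels ties each sample to a separate mouse, so the tests reflect sample-to-sample spread that may be technical.

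Most of these proteins are secreted by hepatocytes. Complement can be started by antibody (C1), by sugar-binding lectins or by spontaneous turnover of C3, and all 3 routes lead to cleavage of C3 and C5 and to the pore formed by C5b to C9. Clotting runs from tissue factor or contact factors through a chain of proteases to thrombin, which turns fibrinogen into fibrin, and plasma inhibitors and plasmin hold it in check. Several of these genes, among them fibrinogen and C3, are known acute-phase genes that interleukin-6 induces in hepatocytes through STAT3 and C/EBP factors.

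Some features of the arrays bear on every value below. Between 67.27% and 70.32% of the probes were well above background on a WT array and between 64.81% and 65.45% on a KO array. The scan times in the headers placed the 3 WT arrays and KO replicate 2 in 1 scan, and KO replicates 1 and 3 in another. A fit with the scan as a block therefore takes its difference from KO replicate 2 alone against WT. Its adjusted p-values also use the spread between KO replicates 1 and 3, so they do not belong to that single array. WT replicate 3 lay between the other WT arrays for 65.6% of the probes that passed the filter, against 15.7% for WT replicate 1 and 18.6% for WT replicate 2. Among the KO arrays, replicate 3 lay between the others for 58.7%, replicate 1 for 29.2% and replicate 2 for 12.1%. The deposited names of WT replicates 1 and 2 carry the same number, and with these averaged 20 of the 49 genes were called, 18 of them among the calls given below, beside 6139 of all 22833 genes tested. Of the Sec15 genes, the Exoc6 probe stood well above background on a single array (1 WT, 0 KO). Of 2 Exoc6b probes, 1 was measured on all arrays and stood 0.53 lower in KO on the log2 scale (SE 0.15). Its adjusted p was 0.044 in limma with every probe tested on its own, a setting that called 28.7% of all probes. Of 14 hepatocyte marker genes, 13 were on the array, all passed the filter, and 5 were higher and none lower in KO. Of all genes tested, 17.5% were higher and 12.2% lower, and in the brightest decile 36.7% and 3.77%. With any trend with brightness taken out (cyclic loess), none of the 13 markers was higher and 1 was lower. The summed signal of the 13 ran from 2584 to 2801 in WT and from 2918 to 3388 in KO, in multiples of each array's 75th percentile signal.

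Signals are given as log2 values relative to the array's 75th percentile, so that 0 is the brightness that the brightest 25% of the probes exceed. They order arrays within a probe and do not compare genes. At an adjusted p under 0.05 (limma, Benjamini-Hochberg over all genes tested), 17 of the 49 genes were higher in KO and 4 were lower, with 28 not past the threshold. Over all genes tested, 29.7% were called, 17.5% higher and 12.2% lower. The 3 KO values lay above all 3 WT values for 26 of the 49 genes and below them for 5, where 30.7% and 20.1% of all genes did so (50.8% on either side). The median log2 fold change of the 49 was 0.24, beside 0.07 for all genes tested. Centring each array on its median moved the median of all genes to 0.18 and that of the 49 to 0.36.

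Brightness has to be read beside these counts and beside every count by role or list below. The change between the groups followed the brightness of the probes, from a median of -0.29 in the dimmest decile of all genes to 0.29 in the brightest, where 40.5% of genes were called (36.7% higher and 3.77% lower). The brightest decile held 30 of the 49 genes. Of these 30, 11 were higher and 1 was lower, with a median of 0.24, so their share of calls was close to that of all genes as bright. The complement and coagulation genes parted within that decile. Of 16 coagulation and fibrinolysis genes there, 9 were higher and 1 was lower (median 0.37). Of 14 complement genes there, 2 were higher and none was lower (median 0.04). The difference between these 2 sets was not tested. Cyclic loess, a normalisation that takes out any trend with brightness, left 5 of the 49 higher and 6 lower (10.8% and 12.5% of all genes, 23.3% in either direction), with a median of 0.00.

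**Figure D1:**
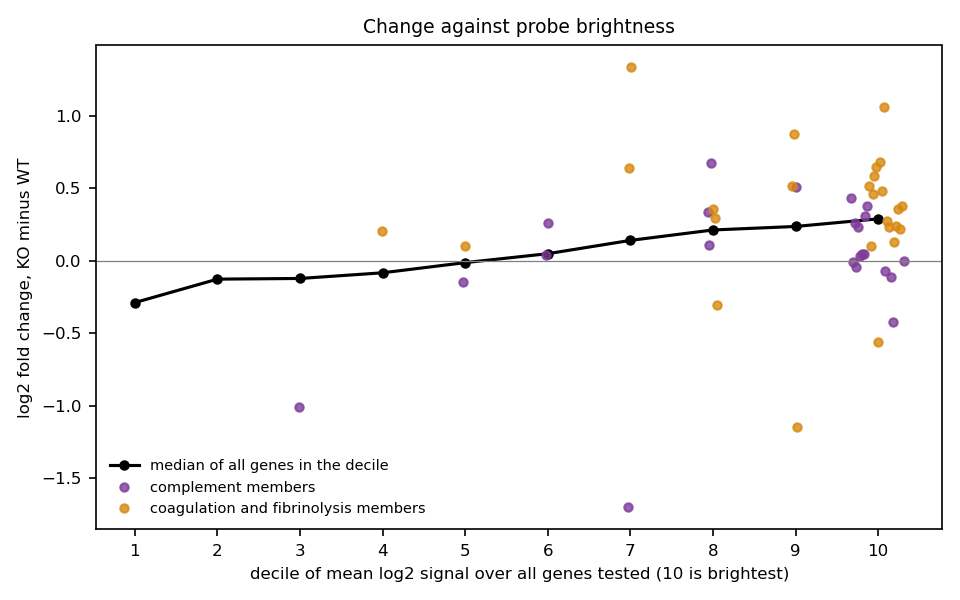
Log2 fold change between Sec15 KO and WT liver (vertical axis) against the decile of mean log2 signal over all genes tested (horizontal axis, 10 is brightest). The black line joins the median of all genes in each decile, from -0.29 to 0.29, and each point is a complement (purple) or coagulation and fibrinolysis (orange) gene, 30 of which lie in decile 10.

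**Figure D2:**
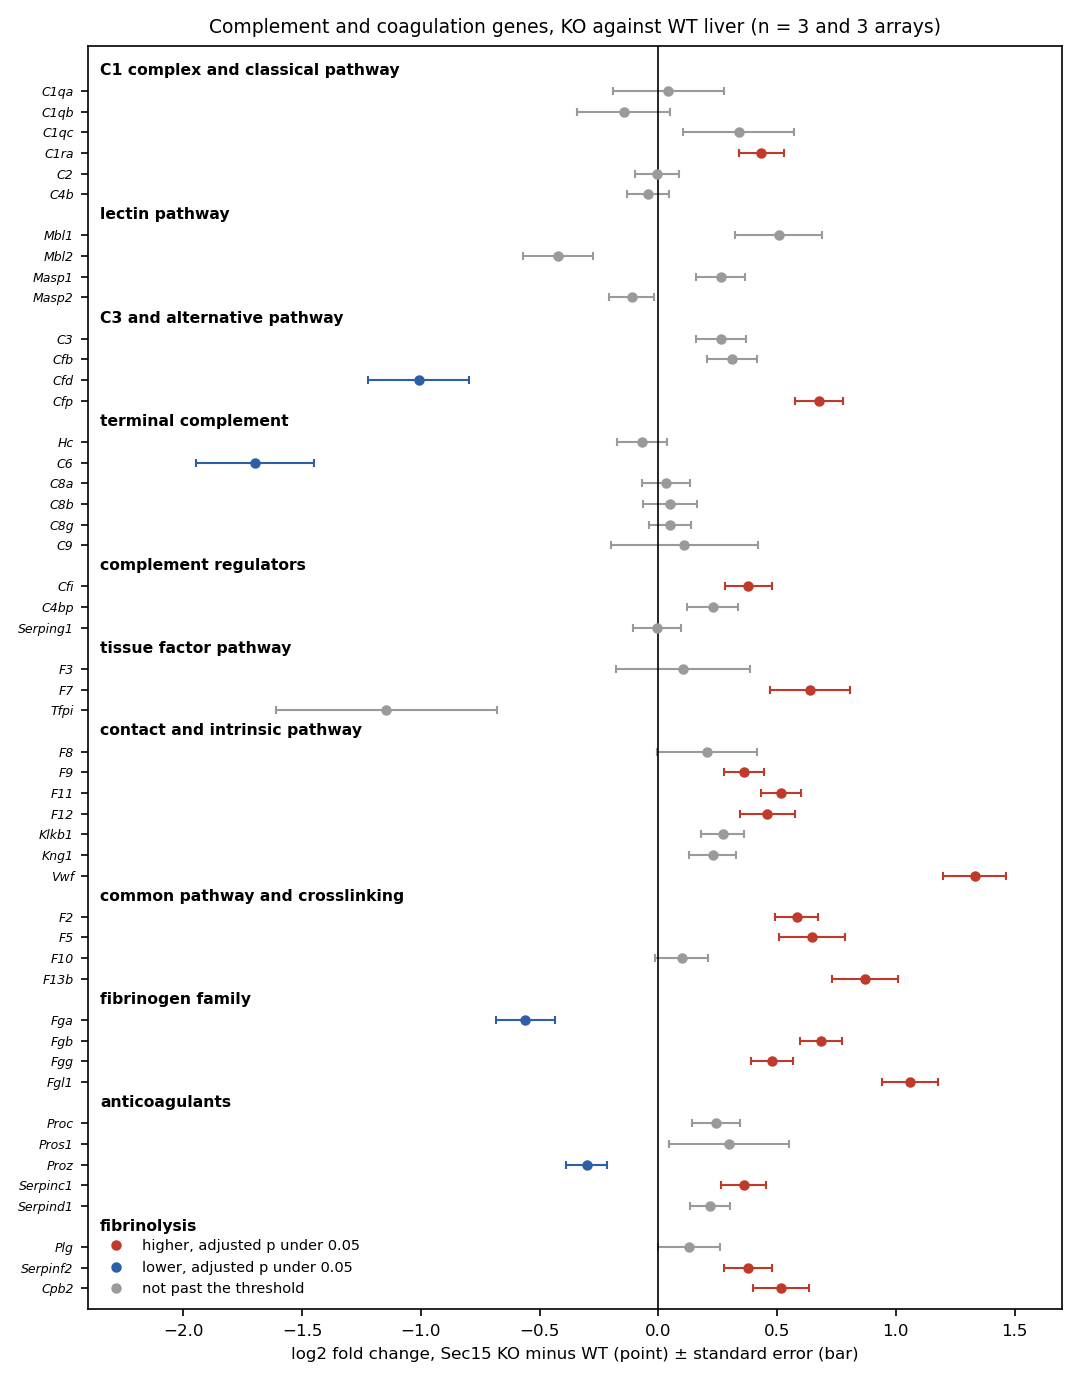
Log2 fold change, KO minus WT, of the 49 tested complement and coagulation genes grouped by role, as points with the standard error as bars (n = 3 arrays per group). Genes higher in KO at an adjusted p under 0.05 are red, lower are blue and the rest are grey, and most of the 17 red points belong to coagulation and fibrinolysis.

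The first steps of the classical pathway moved little, with 1 of 6 genes higher. C1ra, the C1r protease of the C1 complex, read 5.59, 5.51 and 5.50 on the WT arrays and 5.88, 5.96 and 6.07 on the KO arrays (replicates 1, 2 and 3 in this order throughout). Every KO value exceeded every WT value, a 1.35-fold rise (log2 fold change 0.43, SE 0.10, adjusted p = 0.0239). Its second probe differed by 0.04 (SE 0.13). The value was 0.15 after cyclic loess (adjusted p = 0.277), 0.10 with quantile normalisation and 0.01 with normexp and quantile. The call also ended with the scan as a block (adjusted p = 0.0843), with the replicate number as a block (adjusted p = 0.0582) and without WT replicate 3 or KO replicate 3, among others (adjusted p up to 0.114). C1rb, a close copy of C1ra, may share this signal. C1qc, which encodes the C chain of the recognition molecule C1q, read 1.36, 1.38 and 1.38 in WT and 2.10, 1.20 and 1.84 in KO, with KO replicate 2 below every WT array. C1qa and C1qb also overlapped between the groups, with differences of 0.04 (SE 0.23) and -0.15 (SE 0.20). The protease gene C2 stood at -0.01 (SE 0.09) and C4b, the fourth component, at -0.04 (SE 0.09), on a probe that its close copy C4a may share.

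C1q is made by macrophages, so the resident macrophages of the liver, the Kupffer cells, were followed through 12 marker genes. Of the 10 tested, 6 were higher in KO and none was lower (4 and none after cyclic loess), beside 17.5% and 12.2% of all genes. Csf1r (0.37, SE 0.11), Folr2 (0.22, SE 0.14), Timd4 (0.30, SE 0.21) and Adgre1 (0.40, SE 0.31) did not pass the test. All 11 on the array were well above background on at least 1 array. Their summed signal ran from 46.7 to 48.5 in WT and from 76.0 to 87.0 in KO. Between 27.5% and 38.3% of it came from Slc40a1, itself called higher (1.03, SE 0.10). Marco, a scavenger receptor of these cells and the largest rise among these markers, read 1.64, 0.67 and 1.13 in WT and 3.02, 2.76 and 2.93 in KO (adjusted p = 0.0099). The 3 C1q genes, which lie next to each other on chromosome 4, did not pass the test beside these markers. In RNA of whole liver, more cells of a type and more RNA per cell cannot be told apart, and the part of the markers in any result here was not tested.

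No gene of the lectin pathway passed the test. Mbl2, 1 of 2 mannose-binding lectins of the mouse, had the smallest p of the 4. It read 6.20, 5.74 and 5.96 in WT and 5.67, 5.42 and 5.55 in KO, all KO values below the WT values (log2 fold change -0.42, SE 0.15, adjusted p = 0.0754). After cyclic loess it was called lower (-0.71, adjusted p = 0.0224). The other lectin, Mbl1, read 2.58, 2.77 and 2.69 in WT and 3.39, 2.80 and 3.37 in KO, so that KO replicate 2 lay close to the WT arrays (0.51, SE 0.18, adjusted p = 0.0833). Of the proteases that the lectins carry, Masp1 stood at 0.26 (SE 0.11, adjusted p = 0.105), and the probes of Masp2 disagreed. Its brightest probe differed by -0.11 (SE 0.10) and a second probe to the same transcript by -0.36 (SE 0.11). The probe to another Masp2 transcript was higher by 0.36 (SE 0.09, adjusted p = 0.0354 with every probe tested on its own, a setting that called 28.7% of all probes).

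The C3 step held a rise and a fall. Cfp encodes properdin, which stabilises the alternative pathway's C3 convertase and is made by myeloid cells. It read 1.43, 1.20 and 1.24 in WT and 1.99, 1.94 and 1.98 in KO, a 1.60-fold rise (log2 fold change 0.68, SE 0.10, adjusted p = 0.0105). The KO arrays lay close together and clear of WT, and the call ended when WT replicate 3 or KO replicate 3 was left out (adjusted p up to 0.0652). Of 8 tested monocyte and neutrophil markers, 4 were higher in KO and none was lower (3 and 1 after cyclic loess), beside 17.5% and 12.2% of all genes. Lyz2 was well above background on no array. Elane (-0.30, SE 0.12), Mpo (1.33, SE 0.66) and Ccr2 (0.24, SE 0.33) did not pass the test. The 4 higher markers were S100a8 (2.72, SE 0.48), S100a9 (2.33, SE 0.51), Retnlg (2.19, SE 0.34) and Camp (1.75, SE 0.50). The list's summed signal of 102 to 126 in WT and 127 to 149.9 in KO came to at least 89.4% from Csf3r, which did not pass the test (0.25, SE 0.12). Cfd, or adipsin, the protease that cuts factor B and a product chiefly of fat cells, read -2.04, -1.99 and -2.03 in WT and -2.74, -3.50 and -2.85 in KO. All KO values were lower, with KO replicate 2 the lowest, a 2.01-fold difference (log2 fold change -1.01, SE 0.21, adjusted p = 0.0212). The probe was well above background on all WT arrays but only 2 KO arrays, and the call ended without WT replicate 2, WT replicate 3 or KO replicate 3 (adjusted p up to 0.0857). Of 7 tested fat cell markers, Fabp4 (1.65, SE 0.14) and Pnpla2 (0.72, SE 0.12) were higher and Retn was lower (-1.66, SE 0.42), and Adipoq and Lep were well above background on no array. The list's summed signal ran from 247 to 288 in WT and from 135 to 252 in KO, at least 86.6% of it from Car3, which did not pass the test (-0.57, SE 0.26).

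C3, the hub of the cascade, read 8.62, 8.85 and 8.80 in WT and 8.98, 8.97 and 9.12 in KO. Its KO values lay above its WT values without passing the threshold (0.26, SE 0.11, adjusted p = 0.107). The second C3 probe was higher by 0.50 (SE 0.14, adjusted p = 0.0436 with every probe tested on its own), with KO replicate 2 nearest to WT. Cfb, factor B of the C3 convertase, stood at 0.31 (SE 0.11, adjusted p = 0.0721), also with every KO value above WT.

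In the terminal pathway C6 stood apart from the other components of the pore. C6 fell 3.24-fold, the largest change among the 49 genes. It read 1.54, 1.55 and 1.50 in WT and -0.69, 0.31 and -0.13 in KO (log2 fold change -1.70, SE 0.25, adjusted p = 0.0104). The WT arrays lay close together (SD 0.03), while the KO arrays were spread (SD 0.50) and all below WT. With the scan as a block, KO replicate 2 stood at -1.22 against WT. The call of C6 ended when WT replicate 3 or KO replicate 3 was left out (adjusted p up to 0.057). The other 5 components did not pass the test. They were Hc, the mouse gene of C5, at -0.07 (SE 0.10), C8a at 0.03 (SE 0.10), C8b at 0.05 (SE 0.11), C8g at 0.05 (SE 0.09) and C9 at 0.11 (SE 0.31). C9 was also the most variable of them, at 1.67, 0.91 and 1.30 in WT and 1.80, 0.83 and 1.57 in KO. C8a and C8b are neighbours on chromosome 4, and C6 and C9 lie on chromosome 15 with 8 protein-coding genes between them.

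Of the 3 regulators of complement, Cfi was higher. Cfi encodes factor I, which cleaves C3b and C4b. It read 6.25, 6.06 and 6.21 in WT and 6.50, 6.63 and 6.53 in KO, a 1.30-fold rise (log2 fold change 0.38, SE 0.10, adjusted p = 0.0371) that ended after cyclic loess (0.09, adjusted p = 0.584) and without any of 4 arrays, WT replicates 2 and 3 among them (adjusted p up to 0.129). C4bp, whose product is a cofactor of factor I, stood at 0.23 (SE 0.11, adjusted p = 0.148), with KO above WT on every array. Serping1, the C1 inhibitor, which also restrains the contact factors, stood at 0.00 (SE 0.10). Of 23 tested genes on a list of other complement genes, 9 were higher and 1 was lower (median 0.25). After cyclic loess 4 were higher and 2 lower (median 0.03). The 4 with the smallest p were Itgam, a chain of the receptor for the C3 fragment iC3b (-1.38, SE 0.15), the collectin Colec11 (0.83, SE 0.12), the ficolin Fcna (1.30, SE 0.22) and Cfhr2, a relative of factor H (0.43, SE 0.09).

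The tissue factor route starts with F3, tissue factor itself, whose KO values lay within the WT range of -2.05 to -0.92 (0.10, SE 0.28). F7, its protease partner, read 0.16, -0.40 and -0.18 in WT and 0.64, 0.36 and 0.49 in KO. All KO values were higher, a 1.56-fold rise (log2 fold change 0.64, SE 0.17, adjusted p = 0.0381). The second F7 probe also gave 0.64 (SE 0.18). The call ended with the scan as a block (0.50, adjusted p = 0.20) and without WT replicate 3 or KO replicate 3, among others (adjusted p up to 0.129).

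Tfpi, the inhibitor of this route, gave opposite values on its 3 probes. The brightest probe read 2.94, 3.50 and 3.35 in WT and 1.95, 3.12 and 1.29 in KO. KO replicates 1 and 3 lay below every WT array and KO replicate 2 among them (log2 fold change -1.14, SE 0.47, adjusted p = 0.109). Within the scan that KO replicate 2 shares with WT the difference was -0.14. A second probe to the same transcript differed by -0.12 (SE 0.11). The probe to another Tfpi transcript read -2.74, -3.59 and -3.32 in WT and -2.30, -2.58 and -2.32 in KO, higher on every KO array (0.81, SE 0.23, adjusted p = 0.046 with every probe tested on its own). The direction of Tfpi therefore depended on the probe.

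Contact and intrinsic factors gave 4 rises among 7 genes and no fall, beside 17.5% higher and 12.2% lower of all genes tested. After cyclic loess 1 of the 7 was higher and none was lower. Vwf, which carries factor VIII and tethers platelets, rose 2.52-fold. It read 0.07, -0.19 and -0.10 in WT and 1.44, 1.08 and 1.26 in KO (log2 fold change 1.33, SE 0.13, adjusted p = 0.0062), the largest rise among the 49 genes. Its call stood with each of the 6 arrays left out in turn (adjusted p between 0.0031 and 0.0483), and after cyclic loess (1.19, adjusted p = 0.0052). With the scan as a block, KO replicate 2 stood at 1.15 against WT. Von Willebrand factor is made by endothelium and megakaryocytes. Of 11 tested markers of sinusoidal endothelium 5 were higher, none was lower and 6 did not pass the test (3 higher and none lower after cyclic loess). Their values ran from -0.39 (Pecam1) to 0.99 (Stab2), and their summed signal was 26.4 to 27.3 in WT and 32.8 to 43.1 in KO. Endothelium of other vessels was not followed by markers of its own. Of 7 tested platelet and megakaryocyte markers, 1 was higher and 2 were lower, with a summed signal of 1.58 to 1.82 in WT and 1.06 to 1.95 in KO, and Gp5 and Gp6 were well above background on no array. F8, the cofactor that Vwf carries and also a product of endothelium, overlapped between the groups (0.20, SE 0.21, adjusted p = 0.474).

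Of the proteases of this route, F9, F11 and F12 rose. F11 read 2.73, 2.82 and 2.81 in WT and 3.33, 3.29 and 3.30 in KO, a 1.43-fold rise (log2 fold change 0.52, SE 0.08, adjusted p = 0.0126). F12, which starts contact activation, read 4.52, 4.26 and 4.38 in WT and 4.72, 4.94 and 4.87 in KO, 1.38-fold higher (0.46, SE 0.11, adjusted p = 0.0324). F9, the protease lacking in haemophilia B, read 1.12, 1.08 and 1.05 in WT and 1.49, 1.44 and 1.41 in KO, 1.28-fold higher (0.36, SE 0.09, adjusted p = 0.0283). In each the KO arrays cleared the WT arrays. After cyclic loess none of the 3 was called (0.25, 0.18 and 0.18), and without WT replicate 3 or KO replicate 3 none was (adjusted p up to 0.0736 for F11, 0.124 for F12 and 0.135 for F9). Klkb1, the prekallikrein gene and neighbour of F11 on chromosome 8, stood at 0.27 (SE 0.09, adjusted p = 0.0655). Kng1, the kininogen that releases bradykinin, stood at 0.23 (SE 0.10, adjusted p = 0.124), and its close copy Kng2 rose by 0.60 (SE 0.11, adjusted p = 0.0154), although their probes may share signal.

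In the common pathway, 3 of the 4 tested genes were higher, and 1 after cyclic loess. Of all genes tested, 17.5% were higher, and 36.7% in the brightest decile. F2, prothrombin, read 7.98, 7.86 and 7.90 in WT and 8.43, 8.53 and 8.54 in KO. It was 1.50-fold higher with no overlap (log2 fold change 0.58, SE 0.09, adjusted p = 0.0114), and was not called after cyclic loess (0.28, adjusted p = 0.0927). With the scan as a block, KO replicate 2 stood at 0.61 against WT. F5, the cofactor that speeds prothrombin cleavage, read 3.75, 3.28 and 3.53 in WT and 4.13, 4.15 and 4.23 in KO. It was 1.57-fold higher (0.65, SE 0.14, adjusted p = 0.0224), while its second probe gave 0.38 (SE 0.13, adjusted p = 0.0746). F5 was not called after cyclic loess (0.38, adjusted p = 0.0871) or with the scan as a block (0.63, adjusted p = 0.0998). F13b, the carrier subunit of the enzyme that crosslinks fibrin, read 2.44, 2.28 and 2.36 in WT and 3.41, 2.98 and 3.31 in KO, 1.83-fold higher (0.87, SE 0.14, adjusted p = 0.0118). It was also called after cyclic loess (0.62, adjusted p = 0.0168), and with the scan as a block KO replicate 2 stood at 0.62 against WT. Without WT replicate 3 or KO replicate 3 the calls of these 3 genes ended (adjusted p up to 0.0698 for F2, 0.0931 for F5 and 0.0644 for F13b).

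F10, which cuts prothrombin, had probes that differed. Its brightest probe stood at 0.10 (SE 0.11, adjusted p = 0.509). The probe to its other transcript read 6.16, 5.96 and 6.07 in WT and 6.57, 6.53 and 6.60 in KO, higher by 0.51 (SE 0.10, adjusted p = 0.0176 with every probe tested on its own). F7, F10 and Proz lie next to each other on chromosome 8. In this cluster F7 rose, F10 depended on the probe and Proz was lower.

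The fibrinogen chains were read together with Fgl1. The genes Fgg, Fga and Fgb are direct neighbours on chromosome 3. Fgb, the beta chain, read 8.06, 7.99 and 8.05 in WT and 8.69, 8.67 and 8.79 in KO. It was 1.61-fold higher (log2 fold change 0.68, SE 0.09, adjusted p = 0.0081), and kept its call after cyclic loess (0.38, adjusted p = 0.0292). With the scan as a block, KO replicate 2 stood at 0.64 against WT. Fgg, the gamma chain, read 8.15, 8.05 and 8.00 in WT and 8.55, 8.50 and 8.58 in KO, 1.39-fold higher (0.48, SE 0.09, adjusted p = 0.0167), and was not called after cyclic loess (0.18, adjusted p = 0.216). Fgl1, a fibrinogen-like protein that hepatocytes secrete, read 4.76, 4.45 and 4.63 in WT and 5.77, 5.57 and 5.68 in KO. It was 2.08-fold higher (1.06, SE 0.12, adjusted p = 0.0067), and its second probe gave 0.94 (SE 0.23). The call of Fgl1 stood with each array left out in turn (adjusted p between 0.0043 and 0.049), whereas those of Fgb (adjusted p up to 0.0575) and Fgg (up to 0.0931) ended without WT replicate 3 or KO replicate 3.

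The alpha chain gene Fga changed in opposite directions on its 2 probes to the same transcript. The brighter probe read 4.21, 4.54 and 4.43 in WT and 3.75, 3.95 and 3.81 in KO, lower on every KO array (log2 fold change -0.56, SE 0.12, adjusted p = 0.0238). The other probe read 2.93, 2.72 and 2.73 in WT and 3.83, 3.47 and 3.72 in KO, higher on every KO array (0.88, SE 0.13, adjusted p = 0.0107 with every probe tested on its own). Averaged, the probes gave 0.16 (adjusted p = 0.188), so no direction is given for Fga, although its brighter probe stands among the 4 genes counted as lower. The brighter probe's call also ended when WT replicate 3 or KO replicate 3 was left out (adjusted p up to 0.104).

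**Figure D3:**
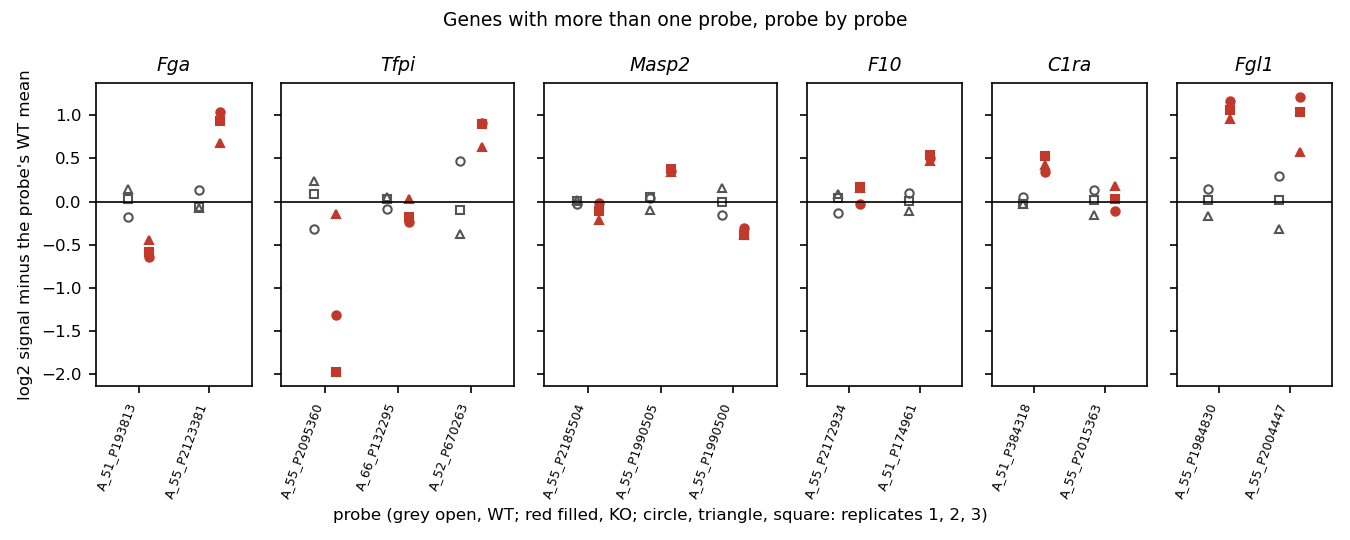
Log2 signal minus the probe's WT mean on every array (vertical axis) for 6 genes with several probes, probe by probe (horizontal axis), with WT arrays as open grey symbols and KO arrays as filled red ones. The 2 Fga probes move in opposite directions (-0.56 and 0.88), the 3 Tfpi probes run from -1.14 to 0.81, and the 2 Fgl1 probes both rise.

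Because the fibrinogen genes lie side by side and 2 of them rose, their promoter windows are shown, beside that of C6, the gene that fell most. Each runs from 250 bases before to 50 bases after the annotated start, 5′ to 3′ on the gene's strand, from RefSeq on GRCm38.p6. Capitals mark matches, on either strand, to TTCNNNGAA (the palindromic STAT site) or CTGGGAA (the core of an interleukin-6 response element).
Fgg, chr3:83007474-83007773, plus strand: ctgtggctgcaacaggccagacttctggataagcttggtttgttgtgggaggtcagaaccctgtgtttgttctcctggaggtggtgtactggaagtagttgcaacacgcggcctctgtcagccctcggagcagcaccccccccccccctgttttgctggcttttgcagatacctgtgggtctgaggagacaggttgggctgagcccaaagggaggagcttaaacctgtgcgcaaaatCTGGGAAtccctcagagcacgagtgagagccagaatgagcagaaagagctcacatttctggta
Fga, chr3:83025903-83026202, plus strand: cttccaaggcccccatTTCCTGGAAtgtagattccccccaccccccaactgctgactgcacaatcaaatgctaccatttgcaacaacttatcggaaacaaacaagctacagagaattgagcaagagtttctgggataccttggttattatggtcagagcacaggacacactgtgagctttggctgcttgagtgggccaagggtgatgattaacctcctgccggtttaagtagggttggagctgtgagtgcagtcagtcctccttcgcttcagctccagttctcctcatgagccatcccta
Fgb, chr3:83049814-83050113, minus strand: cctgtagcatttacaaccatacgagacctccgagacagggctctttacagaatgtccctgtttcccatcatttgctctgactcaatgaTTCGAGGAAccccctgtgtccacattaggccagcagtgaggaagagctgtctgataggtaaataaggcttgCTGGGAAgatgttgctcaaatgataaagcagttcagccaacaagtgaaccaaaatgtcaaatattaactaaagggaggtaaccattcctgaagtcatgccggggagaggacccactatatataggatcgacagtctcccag
C6, chr15:4726960-4727259, plus strand: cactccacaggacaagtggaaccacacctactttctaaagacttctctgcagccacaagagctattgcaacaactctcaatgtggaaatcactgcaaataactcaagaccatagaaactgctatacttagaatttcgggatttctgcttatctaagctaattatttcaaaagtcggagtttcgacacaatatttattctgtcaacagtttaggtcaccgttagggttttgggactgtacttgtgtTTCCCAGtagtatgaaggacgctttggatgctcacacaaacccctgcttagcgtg
Fgb held both motifs, beginning 162 and 91 bases before the start, Fga held TTCNNNGAA at 234 bases, Fgg held CTGGGAA at 13 bases, and C6 held CTGGGAA at 5 bases. The table had windows for 38 of the 50 genes, 41 windows in all. TTCNNNGAA was in 7 of them (17.1%), those of C1ra, Masp2, C8a, F9, Fga, Fgb and Pros1, beside 8.3% of 32851 windows of all genes. CTGGGAA was also in 7 (17.1%), those of C1ra, Masp2, C6, Tfpi, F9, Fgb and Fgg, beside 11.1%. In Masp2 and F9 both matches overlapped. The C/EBP-type sequence TTNNGNAA was in 21 windows (51.2%), beside 40.7%. A match is a stretch of letters, not a bound site, and genes that rose, that fell and that did not pass the test all hold these letters.

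Of the anticoagulants, Serpinc1 was higher and Proz lower. Serpinc1 encodes antithrombin, the main inhibitor of thrombin and factor Xa. It read 8.12, 8.02 and 8.03 in WT and 8.32, 8.42 and 8.50 in KO, 1.28-fold higher (log2 fold change 0.36, SE 0.09, adjusted p = 0.0374). It stood at 0.06 after cyclic loess (adjusted p = 0.682) and was not called with the scan as a block (adjusted p = 0.107). Proz, protein Z, the cofactor of an inhibitor of factor Xa, read 1.10, 1.15 and 1.10 in WT and 0.87, 0.77 and 0.81 in KO. It was 1.23-fold lower (-0.30, SE 0.09, adjusted p = 0.0447), and was also lower after cyclic loess (-0.47, adjusted p = 0.0169) but not past the threshold after median centring (adjusted p = 0.27) or with the scan as a block (adjusted p = 0.086). Serpina10, the gene of the inhibitor that protein Z assists, rose by 0.32 (SE 0.08, adjusted p = 0.0377). The calls of Serpinc1 and Proz stood when KO replicate 2 was left out and ended with any other array left out (adjusted p up to 0.151 and 0.16).

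The other anticoagulant genes did not pass the test. Proc, which encodes protein C, stood at 0.24 (SE 0.10, adjusted p = 0.116), with every KO value above WT. Its cofactor gene Pros1 stood at 0.30 (SE 0.25), with KO replicate 2 at the lower end of the WT values. Serpind1, heparin cofactor II, stood at 0.22 (SE 0.08, adjusted p = 0.0977), also with no overlap. Taken by chemistry, 7 of the 49 are vitamin K-dependent proteins (F2, F7, F9, F10, Proc, Pros1 and Proz). Of these, 3 were higher and 1 was lower, beside 17.5% and 12.2% of all genes tested (none and 1 after cyclic loess). Of the vitamin K enzymes, Ggcx stood at 0.15 and Vkorc1 at 0.03, neither past the test, and Vkorc1l1 rose by 0.56 (SE 0.13, adjusted p = 0.0283).

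In fibrinolysis 2 of 3 genes were higher, both of them brakes on plasmin, beside 17.5% of all genes and 36.7% of the brightest decile. Cpb2, the carboxypeptidase that protects fibrin from plasmin, read 4.65, 4.30 and 4.44 in WT and 5.00, 4.91 and 5.02 in KO, 1.43-fold higher (log2 fold change 0.52, SE 0.12, adjusted p = 0.0265). Serpinf2, alpha-2-antiplasmin, read 6.48, 6.39 and 6.42 in WT and 6.83, 6.68 and 6.91 in KO, 1.30-fold higher (0.38, SE 0.10, adjusted p = 0.0376), and stood at -0.01 after normexp correction with quantile normalisation. The KO arrays cleared the WT arrays in both. Neither was called after cyclic loess (0.24 and 0.09) or with the scan as a block (0.45 and 0.25), nor when WT replicate 3 or KO replicate 3 was left out (adjusted p up to 0.112 and 0.147). The call of Serpinf2 ended with any array but KO replicate 2 left out. Plg, plasminogen itself, overlapped between the groups (0.13, SE 0.13, adjusted p = 0.466).

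**Figure D4:**
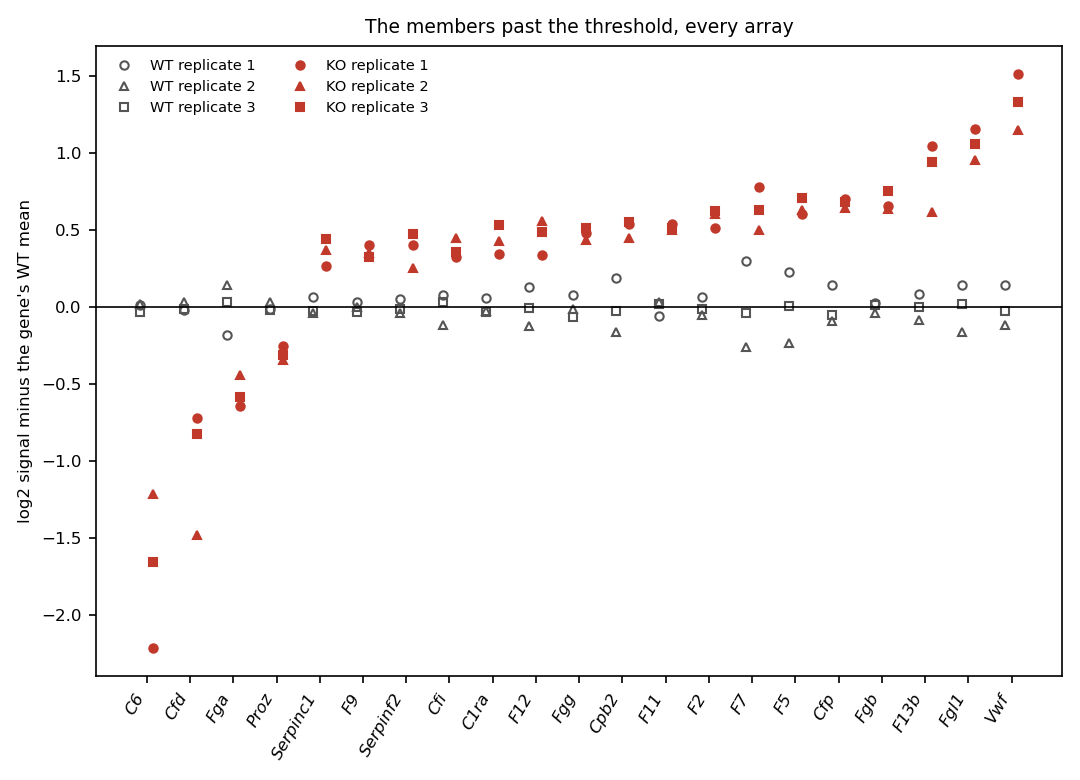
Log2 signal minus the gene's WT mean on every array (vertical axis) for the 21 genes past the threshold (horizontal axis, ordered by fold change), with WT arrays as open grey symbols and KO arrays as filled red ones. The KO arrays lie clear of the WT arrays in all 21, which were chosen on these same values (50.8% of all genes tested do so). KO replicate 2 (triangle) lies nearest to WT in 12 of the 21.

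In each of the 21 calls the 3 KO values lay on 1 side of the WT values, as in 50.8% of all genes tested. The calls were made on these same values, so this adds no support to them. KO replicate 2 was the KO array nearest to the WT mean in 12, between the other KO arrays in 5 and the farthest in 4. The scan as a block takes the difference of KO replicate 2 alone from WT, with the spread of all arrays. It called 9 of the 49 genes, beside 9.71% of all genes (5.08% higher and 4.63% lower). All 9 were among the 21 (Vwf, Fgl1, Fgb, F13b, F2, F11 and Cfp higher, C6 and Cfd lower). After cyclic loess 11 of the 49 were called, beside 23.3% of all genes, and 9 of these were among the 21. In both settings 7 of the 21 were called. The 21 were chosen on these same arrays, so shares among them are not set beside those of all genes. Vwf and Fgl1 were the 2 genes whose call stood with every array left out in turn.

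Of 24 tested genes on a list of other coagulation and fibrinolysis genes, 7 were higher and 1 was lower (median 0.28). After cyclic loess 3 were higher and 1 was lower (median 0.11). The 3 with the smallest p were Lman1, a receptor that carries factors V and VIII out of the endoplasmic reticulum (0.61, SE 0.09, adjusted p = 0.0096), Kng2 and Vkorc1l1. Mcfd2, the partner of Lman1, stood at 0.60 (adjusted p = 0.065), chosen after its value was seen.

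The acute-phase genes most often linked to interleukin-6 changed in part. Of 20 on the list, 6 were higher and 1 was lower (median 0.30). Of all genes tested, 17.5% were higher and 12.2% lower, and in the brightest decile 36.7% and 3.77%. After cyclic loess 3 of the 20 were higher and 1 was lower (median 0.07). After Fgl1, which is on this list too, the smallest p belonged to Itih3 (0.62, SE 0.10), Lcn2, which encodes lipocalin-2 (-1.73, SE 0.32), and Cp, which encodes ceruloplasmin (0.55, SE 0.12). The serum amyloid genes Saa1 (0.24, SE 0.14) and Saa2 (0.41, SE 0.17) did not pass the test. Among 15 tested genes of hepatocyte transcription factors and interleukin-6 receptors, 6 were higher and 1 was lower (3 and 2 after cyclic loess). Among those with the smallest p were Cebpd (1.45, SE 0.13), Cebpb (0.69, SE 0.09) and the receptor gene Il6ra (1.07, SE 0.17). Stat3 itself read 3.23, 2.89 and 3.06 in WT and 3.25, 2.92 and 3.17 in KO (0.05, SE 0.14). Of 8 tested markers of acinar pancreas, 6 were lower and 1 was higher, and Cela1, Cela2a and Cela3b were well above background on no array. Try4 (-3.80, SE 0.56) and Try5 (-3.73, SE 0.62) fell most. The summed signal of 12.6 to 16.5 in WT and 12.3 to 12.7 in KO came to between 40.5% and 76.9% from Amy2a5, the marker that rose (0.49, SE 0.09).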

How the data were processed

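Per the file headers, the authors' arrays were read with Agilent Feature Extraction 11.0.1.1, and the deposited processed signal is an intensity per spot, above 0 for every spot and not scaled between arrays; its correction steps are not given in the sources used here. Spot flags in the deposited files (other values, 0 or 1) marked outliers, saturation and signal well above background. Of 43020 non-control spots per array, 178 to 236 outliers were left out, none was saturated, and log2 values of spots of 1 probe were averaged over 39429 probes. Each array's 75th percentile was subtracted. Probes well above background on at least 3 of 6 arrays were kept (27054), and accessions were matched to RefSeq symbols (GRCm38.p6, names only), with 27234 probes matched. A gene was its brightest probe.

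WT and KO were compared with limma 3.58.1 (lmFit, eBayes) in R 4.3.3 at a Benjamini-Hochberg adjusted p under 0.05, checked on simulated data. The number of arrays limits the precision. The members and lists were chosen with earlier results of these data known. Per-array values are given for every called gene, the fibrinogen genes and, in a role with no call, the gene with the smallest p. For other lists up to 4 genes with the smallest p are named. C7, Serpina10, Ggcx, Vkorc1, Mcfd2, Saa1, Saa2, Stat3 and the single cell type markers with values were named after their values were seen. A few genes chosen this way are left out here. Alternatives covered normalisation (quantile, median, cyclic loess, normexp with offset 50), filters, variance, weights, probes, blocks and arrays left out.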

Additional observations from a re-analysis of the deposited data

How the results depend on the processing

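The 21 calls among the 49 genes (6780 among all genes) rested on few arrays. Leaving out 1 array gave between 2 and 27 calls among the members and between 600 and 10807 among all genes, the lowest without WT replicate 3 and the highest without KO replicate 2. With the scan as a block, where the difference rests on KO replicate 2 alone, there were 9 member calls and 2216 in all. The arrays of the shared scan alone, with KO replicate 2 as the only KO array, assumed to vary like WT, gave 0 calls by limma in both sets (6757 genes and 18 members at an unadjusted p under 0.05), and the 21 adjusted p-values lay between 0.0779 and 0.28. Cyclic loess gave 11 member calls (5 higher, 6 lower, beside 5317 in all), and array weights, which gave WT replicate 3 a weight of 8.89, gave 35 and 16867.

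Quantile normalisation left 14 member calls (9 higher, 5 lower, beside 5674 in all), normexp with quantile 17 (10 and 7, beside 6072), no filter 14 (beside 4818 of 32451), and the filter on all 6 arrays dropped Cfd. Of 979 values of single members under the alternatives, 727 kept direction and call, 146 lost the call, 40 gained one, and 64 changed sign without being called in either setting. Those that lost a call by turning sign were Fga at 0.16 with the mean of its probes and Serpinf2 at -0.0066 with normexp, the first because its probes oppose each other.

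With the replicate number as a replicate block, 14 member calls (11 higher, 3 lower) and 5315 in all remained. The labels do not say that a number pairs samples, and deviations of same-numbered arrays correlated at 0.10, 0.11 and 0.03, with 5 of 6 arrays correlating best with their own number. The cause of the changes between settings was not tested.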
